A study of Homo sapiens with 6 samples.

Results

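Aminoacyl-tRNA synthetase genes were examined in REH cells, an established line from acute lymphoblastic leukemia of human B-cell precursors, in which the ETV6/RUNX1 fusion is expressed. A gene was taken in when a catalogue probe of the array carried a RefSeq accession that maps to 1 of 37 listed symbols. All 37 were found, out of 19721 named genes on the array, and they consisted of 19 cytosolic synthetases, 16 mitochondrial synthetases and 2 scaffold proteins of the multisynthetase complex (AIMP1 and AIMP2). They were covered by 40 probes, 3 for IARS1, 2 for MARS1 and 1 for each other gene. All 40 passed the filter on low values and lay well above background on all 6 arrays, so no gene was lost. Each gene is described by its brightest probe. The listed genes do not cover every amino acid.

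Aminoacyl-tRNA synthetases join each amino acid to its own tRNA, the step that fixes which codon is read as which amino acid. Human cells run this reaction in the cytosol and again in mitochondria, mostly with enzymes from separate nuclear genes, where the cytosolic gene name ends in 1 or in a letter and the mitochondrial one in 2. GARS1 and KARS1 are exceptions, since each supplies both compartments with glycyl-tRNA or lysyl-tRNA synthetase. Several cytosolic enzymes sit together in the multisynthetase complex, held by AIMP proteins. When amino acids run short, uncharged tRNA activates the kinase GCN2, which raises translation of the transcription factor ATF4. ATF4 binds, together with C/EBP proteins, to response elements in front of amino acid transporters, biosynthetic enzymes and a number of synthetase genes.

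The 6 arrays were 1-color custom Agilent arrays, hybridized with Cy3-labelled RNA from 3 control and 3 knockdown cultures. According to the study's methods, REH cells received a GFP-marked lentiviral short hairpin RNA (shRNA) and GFP-positive cells were sorted some days later. In knockdown cells the hairpin targeted the ETV6 portion of the fusion transcript, and since REH has lost its other ETV6 allele, no normal ETV6 transcript is present. In control cells the hairpin was non-targeting per the labels, and per the methods it was a second ETV6 hairpin that did not hit the fusion transcript. Thus both groups carry a virus, a hairpin and GFP, and both stem from 1 cell line. Replicates are numbered 1 to 3 in each group, and the study calls them biological triplicates. What distinguished the culture of replicate 1 from the others is not given in the sources used here. A bulk array cannot tell a change in every cell from a larger change in some of them.

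All 6 arrays lay on 1 slide and were read in 1 scan. Control replicates 1 and 2 occupied its first row, whereas control replicate 3 and all knockdown arrays occupied its second row. Of all spots, 52.54% on control replicate 1 and 50.74% on knockdown replicate 1 were well above background, and 47.56% to 51.2% on the others. Values below are normalized log2 intensities, so that a difference of 1 is a 2-fold change. The median SD within a group was 0.15 over all retained probes, and the small number of arrays limits precision. A gene is said to be called when limma gave a Benjamini-Hochberg adjusted p under 0.05 over all 27490 retained probes. The ETV6 probe above background (A_33_P3356325) measured 7.92, 8.05 and 8.37 in control and 7.50, 7.46 and 7.29 in knockdown. All knockdown arrays were below all control arrays, with a difference of -0.70 (SE 0.14, adjusted p = 0.0513) that just missed the threshold. Where this probe lies relative to the breakpoint was not analysed here. The study itself assessed the loss of the fusion by Western blot and RT-qPCR, which are not part of these arrays. B-cell precursor markers were present, with 9 of 10 genes retained. VPREB1 was not retained, and 1 of its 2 probes was well above background on control replicate 1 alone.

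The letters TGATGNAA, the core of the C/EBP-ATF response element, were searched on either strand in the promoters of these genes. They are shown because 7 of the 8 genes that hold them are among the genes found higher in replicate 1 below. RefSeq promoter sequences (GRCh38.p14, from 250 bases before to 50 after the start) were at hand for 32 of the 37 genes, all but YARS1, VARS1, LARS1, AARS2 and VARS2. The core was found in 8 of these 32. The windows of 30 bases run 5′ to 3′ on the strand of the gene, and capitals mark the core, or its reverse complement where the core lies on the opposite strand.
CARS1 (chr11:3057407-3057436, minus strand): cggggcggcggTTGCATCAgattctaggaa
GARS1 (chr7:30594834-30594863, plus strand): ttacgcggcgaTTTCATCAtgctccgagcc
AARS1 (chr16:70289675-70289704, minus strand): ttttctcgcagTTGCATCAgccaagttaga
IARS1 (chr9:92293692-92293721, minus strand): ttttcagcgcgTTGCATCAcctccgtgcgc
TARS1 (chr5:33440956-33440985, plus strand): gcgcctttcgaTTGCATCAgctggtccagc
MARS1 (chr12:57488053-57488082, plus strand): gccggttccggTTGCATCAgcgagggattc
NARS1 (chr18:57621804-57621833, minus strand): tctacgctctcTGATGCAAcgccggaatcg
YARS2 (chr12:32756076-32756105, minus strand): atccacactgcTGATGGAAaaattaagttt

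Of these 8 genes, 7 are cytosolic and YARS2 is mitochondrial. In 6 of the 7 cytosolic promoters the first base of the core lay between position -33 and position 15, counted from the start site as position 1. In AARS1 it lay at -187 and in YARS2 at -197. Of all 35116 promoter sequences, 3.62% held the core, and across genes with a retained probe 2.91% did. A match of these letters is a description of the sequence and was not tested as a binding site.

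Replicate 1 was then compared with replicates 2 and 3, with the group as a term beside it. This comparison was chosen with earlier results of these arrays known, so its p-values describe the arrays and are no independent support. Of 19 cytosolic genes 12 were called, all higher in replicate 1, and 7 were not called. Of 16 mitochondrial genes and 2 scaffold genes 0 were called, and the compartments were not tested against each other. Over all retained probes, 5.68% were called in this comparison, and 3.67% were called as higher. The median difference was 0.66 for cytosolic genes, 0.02 for mitochondrial genes and 0.0061 for all retained probes. Both replicate 1 arrays lay above all 4 others for 13 cytosolic genes and 1 mitochondrial gene (TARS2), and this was so for 15.2% of all probes with a value on every array.

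**Figure D1:**
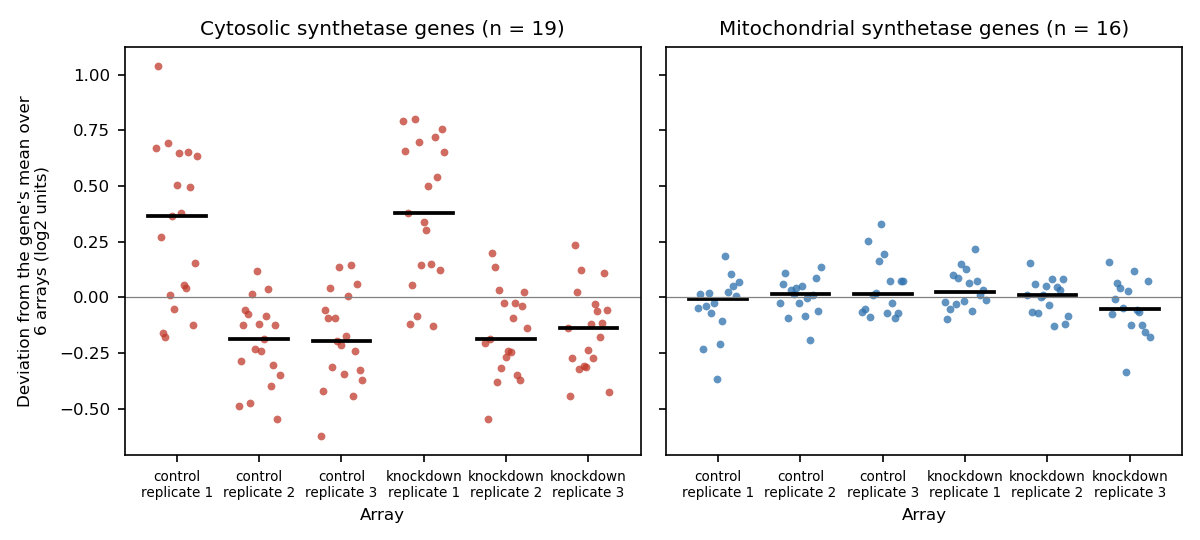
Deviation of each synthetase gene from its own mean over the 6 arrays, in log2 units, for cytosolic genes (left) and mitochondrial genes (right), with 1 point per gene and a bar at the median. On both replicate 1 arrays the cytosolic median lies at 0.37 and 0.38, on the other arrays between -0.20 and -0.14, whereas all mitochondrial medians lie between -0.05 and 0.02.

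CARS1, the cysteinyl-tRNA synthetase, showed the largest difference. It measured 10.56 in control replicate 1 against 9.23 and 9.10 in control replicates 2 and 3, and 10.17 in knockdown replicate 1 against 8.97 and 9.07. Thus both replicate 1 arrays stood about 1 log2 unit clear of the others, a difference of 1.27 (SE 0.10, adjusted p = 0.00135) or 2.42-fold. The 4 other arrays had a mean of 9.09 ± 0.11 (SD, n = 4). GARS1 charges glycine tRNAs of both compartments. Control arrays 1 to 3 of GARS1 measured 11.60, 10.43 and 10.60, and knockdown arrays 11.71, 10.53 and 10.59. Replicate 1 was again apart, by 1.12 (SE 0.09, adjusted p = 0.00154). AARS1, the alanyl-tRNA synthetase, measured 12.56, 11.40 and 11.26 in control and 12.68, 11.68 and 11.75 in knockdown. Its difference was 1.096 (SE 0.10, adjusted p = 0.00261), whereas its knockdown difference was 0.29 and not called. The seryl-tRNA synthetase SARS1 measured 14.56, 13.51 and 13.46 in control and 14.62, 13.56 and 13.73 in knockdown, a difference of 1.03 (SE 0.09, adjusted p = 0.00236). For YARS1, which charges tyrosine, control arrays measured 12.30, 11.32 and 11.29 and knockdown arrays 12.32, 11.53 and 11.24. Replicate 1 exceeded the others by 0.96 (SE 0.11, adjusted p = 0.00519). These 5 genes were close to 2-fold higher or above, from 1.95-fold for YARS1 to 2.42-fold for CARS1.

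The next 5 genes differed by 0.66 to 0.80. IARS1, the isoleucyl-tRNA synthetase of the complex, measured 14.09, 13.49 and 13.53 in control and 14.42, 13.41 and 13.41 in knockdown. Its difference was 0.80 (SE 0.11, adjusted p = 0.0132), and its other probes, A_33_P3209346 and A_33_P3209351, gave 0.92 and 0.80 and were called as well, the latter not with the replicate number as a block (adjusted p = 0.0556). TARS1 charges threonine. It measured 13.68, 12.88 and 12.94 in control and 13.72, 12.81 and 13.06 in knockdown, a difference of 0.78 (SE 0.10, adjusted p = 0.00957). MARS1 supplies methionyl-tRNA, with which translation begins. Values were 14.23, 13.35 and 13.24 in control and 13.89, 13.35 and 13.47 in knockdown, with a difference of 0.71 (SE 0.12, adjusted p = 0.0232), and its second probe A_33_P3379377 gave 0.56 and was also called, but not with the block (adjusted p = 0.0543). WARS1, the tryptophanyl-tRNA synthetase, is known as a gene induced by interferon gamma. WARS1 measured 11.11, 10.42 and 10.63 in control and 11.72, 10.98 and 10.90 in knockdown, and differed by 0.68 (SE 0.10, adjusted p = 0.0159). For NARS1, which charges asparagine, values were 13.08, 12.51 and 12.53 in control and 13.20, 12.45 and 12.43 in knockdown, 0.66 higher in replicate 1 (SE 0.09, adjusted p = 0.0114). In each of these 5 genes both replicate 1 arrays lay above all others.

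LARS1 and EPRS1 completed the called genes. The leucyl-tRNA synthetase LARS1 was 0.63 higher (SE 0.09, adjusted p = 0.0114). EPRS1, a fused enzyme for glutamate and proline, was 0.48 higher (SE 0.10, adjusted p = 0.0345), and its call was lost with the replicate number as a block (adjusted p = 0.0642). The remaining 7 cytosolic genes were not called and ranged from -0.21 to 0.15. QARS1, for glutamine, had 0.15 and lay above all others in both replicate 1 arrays. KARS1, which like GARS1 serves both compartments, had 0.07 (adjusted p = 0.807), with 14.34, 14.51 and 14.53 in control and 14.54, 14.37 and 14.08 in knockdown. VARS1, HARS1, RARS1 and FARSB measured differences of -0.00, -0.06, -0.07 and -0.09. FARSA, the alpha subunit of the phenylalanyl-tRNA synthetase, had -0.21 (adjusted p = 0.23), and both replicate 1 arrays lay below all others. Hence neither subunit of that enzyme was called, and both had negative values.

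**Figure D2:**
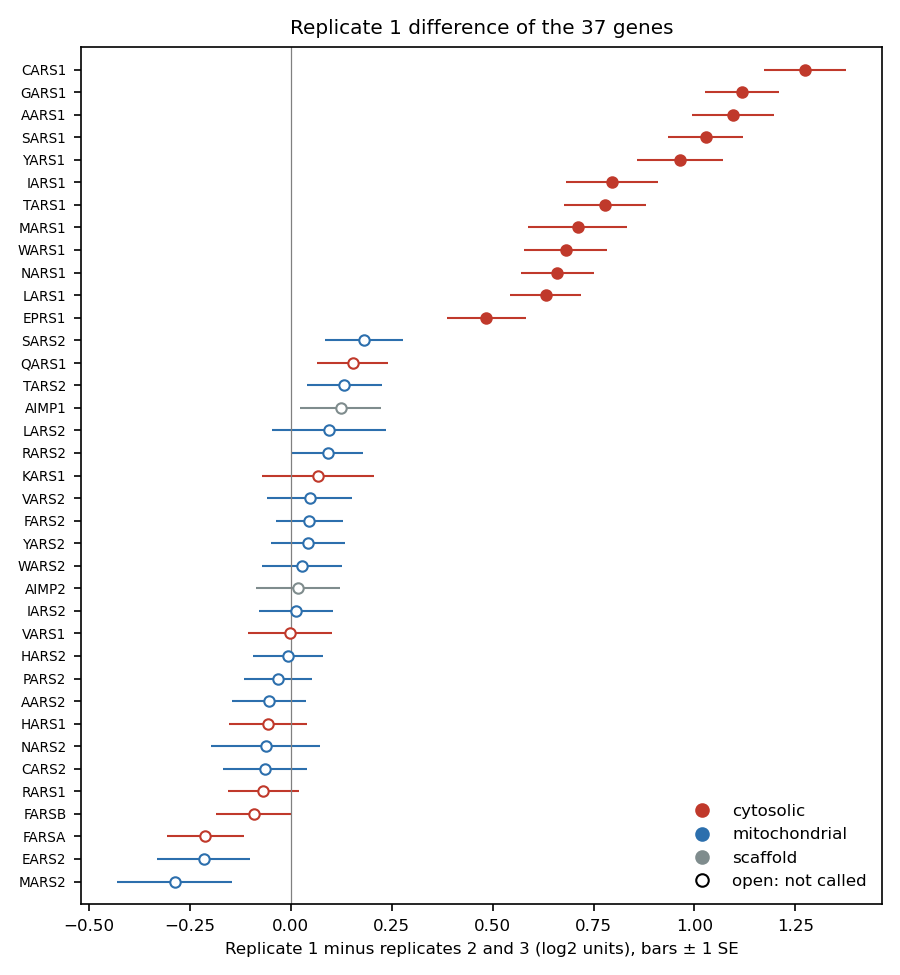
Difference between replicate 1 and replicates 2 and 3 for all 37 genes, in log2 units with bars of 1 SE, colored by compartment and filled where called. The 12 filled points, all cytosolic, run from 0.48 to 1.27, and all other genes lie between -0.29 and 0.18.

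None of the mitochondrial enzymes was called by limma, with adjusted p from 0.267 upward. At an unadjusted p under 0.05 there were 0 of the 16 genes and 6584 of all 27490 probes. MARS2 had the largest absolute difference, -0.29. The mitochondrial methionyl-tRNA synthetase MARS2 measured 6.06, 6.40 and 6.75 in control and 6.41, 6.47 and 6.45 in knockdown, so that its spread came from the control arrays. EARS2, for mitochondrial glutamyl-tRNA, measured 9.47, 9.81 and 9.96 in control and 9.65, 9.64 and 9.70 in knockdown, a difference of -0.22. SARS2 measured 10.58, 10.36 and 10.53 in control and 10.77, 10.60 and 10.49 in knockdown, a difference of 0.18 with overlapping replicates. TARS2 measured 10.94, 10.85 and 10.75 in control and 10.91, 10.87 and 10.71 in knockdown. Its difference of 0.13 (adjusted p = 0.43) was small, although both replicate 1 arrays were above the others. The scaffold genes AIMP1 and AIMP2 had 0.12 and 0.02.

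For 16 amino acids both compartments were represented, which allows them to be set side by side. For 13 of these exactly 1 cytosolic and 1 mitochondrial gene served the amino acid alone. The cytosolic gene had the larger difference for 10 of the 13, and these were the 10 whose cytosolic gene was called. For cysteine the cytosolic difference exceeded the mitochondrial one by 1.34, for alanine by 1.15 and for methionine by 1.00. The other called pairs were tyrosine (0.92), serine (0.85), isoleucine (0.78), asparagine (0.72), tryptophan (0.65), threonine (0.65) and leucine (0.54). Histidine (-0.05), valine (-0.05) and arginine (-0.16) had slightly larger mitochondrial values, and no gene of these pairs was called. The median over the 13 pairs was 0.72. The remaining 3 amino acids have no such pair. For phenylalanine both cytosolic subunits lay below the mitochondrial enzyme, FARSA at -0.21 and FARSB at -0.09 against FARS2 at 0.05. EPRS1, at 0.48, serves glutamate and proline, and lay above EARS2 (-0.22) and PARS2 (-0.03). With the subunits averaged and EPRS1 used for both of its amino acids, the cytosolic difference was the larger for 12 of 16, with a median of 0.68. Each pair was described and not tested, since the genes share the same arrays.

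**Figure D3:**
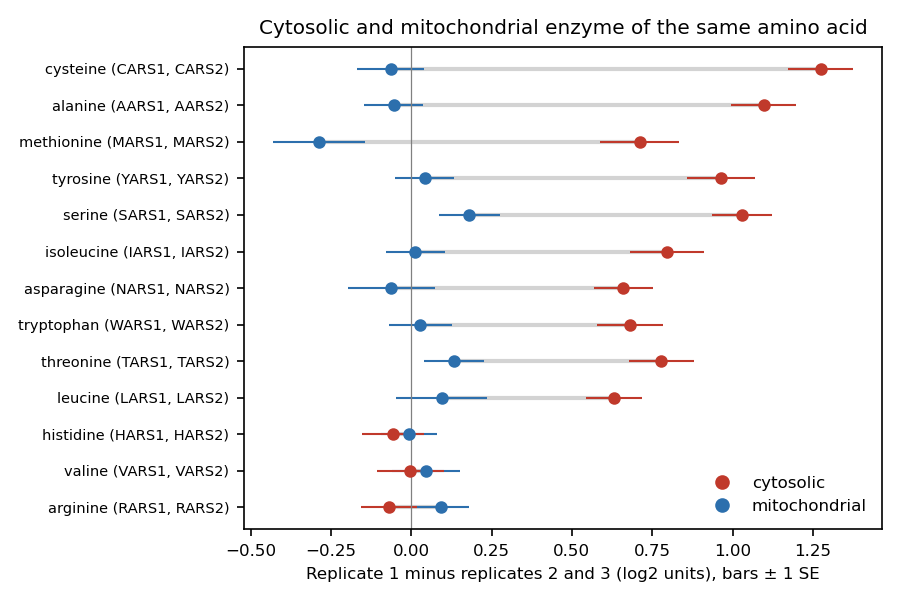
Replicate 1 difference of the cytosolic (red) and the mitochondrial gene (blue) of the same amino acid, in log2 units with bars of 1 SE, for the 13 amino acids with 1 gene of their own in each compartment. In 10 pairs the cytosolic point lies to the right by 0.54 to 1.34, and in histidine, valine and arginine the points lie within 0.16 of each other.

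Within the cytosolic genes, calls were found in both structural classes of the enzyme. Class I and class II synthetases have unrelated catalytic folds. Of 9 class I genes 6 were called, and of 9 class II genes 5 were, while EPRS1 holds a domain of each class. In the multisynthetase complex 4 of 7 enzymes were called (EPRS1, IARS1, LARS1 and MARS1), and outside it 8 of 12 were. Median differences were 0.48 in the complex and 0.73 outside it. The response element core was then counted in the same way, as a description without a test. Of the called cytosolic genes with a promoter sequence 7 of 10 held it (70%), of the uncalled ones 0 of 6 did, of the mitochondrial ones 1 of 14 and of the scaffold genes 0 of 2. The called genes SARS1, WARS1 and EPRS1 lacked these letters in the window, and YARS2 held them with a difference of 0.04.

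Next, the same genes were compared between knockdown and control. No synthetase gene was called (0 of 37, limma), and 1.74% of all retained probes were. At an unadjusted p under 0.05 there were 0 of the 37 genes and 3442 of all 27490 probes. Differences ranged from -0.22 for CARS1 to 0.48 for WARS1, with medians of 0.04 for cytosolic genes, -0.01 for mitochondrial genes and -0.00087 for all probes. WARS1 was 0.60, 0.57 and 0.27 higher in knockdown in replicates 1, 2 and 3. Its mean was 10.72 ± 0.36 in control and 11.20 ± 0.45 in knockdown (SD, n = 3 each), a difference of 0.48 (SE 0.25, adjusted p = 0.491). With the replicate number as a block the adjusted p was 0.0642, which was the lowest of any member. PARS2, the mitochondrial prolyl-tRNA synthetase, measured 9.21, 9.23 and 9.24 in control and 9.38, 9.39 and 9.43 in knockdown. The arrays of PARS2 did not overlap, yet the difference of 0.17 (SE 0.09, adjusted p = 0.48) was not called. YARS2 measured 11.18, 11.24 and 11.18 in control and 11.09, 11.02 and 10.93 in knockdown, a difference of -0.18 (SE 0.09, adjusted p = 0.486). FARSA measured 11.78, 11.89 and 11.85 in control and 11.82, 12.15 and 12.18 in knockdown, a difference of 0.21 (SE 0.12, adjusted p = 0.534) with overlapping groups.

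Control and knockdown arrays did not overlap for 6 of the 37 genes, 3 higher (AARS2, FARS2 and PARS2) and 3 lower (RARS1, RARS2 and YARS2), where 18.9% of all probes did not. Standard errors of the knockdown difference were wide for genes with a replicate 1 difference, 0.44 for CARS1 against 0.09 for PARS2, since this comparison has no term for the replicate. All directions are relative to the bulk of probes. Scaling on the spike-in probes moved the median of all probes by 0.35, and WARS1 was then called (0.83, adjusted p = 0.0242), as were 1069 of all 27490 probes.

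**Figure D4:**
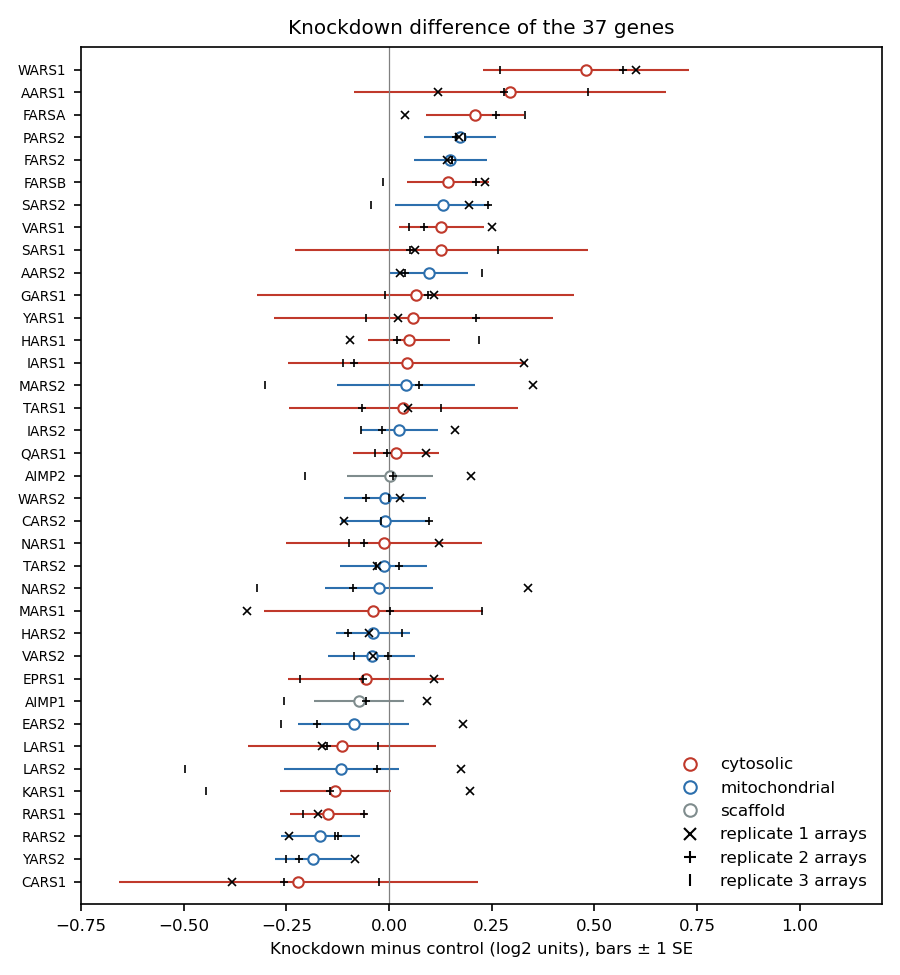
Knockdown minus control for all 37 genes, in log2 units, with open circles for the mean difference, bars of 1 SE and small marks for the 3 same-numbered pairs of arrays. No gene was called, and the means lie between -0.22 and 0.48.

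Finally, the replicate 1 difference was compared between the groups. Within control, replicate 1 was above the mean of the other replicates for 14 of 19 cytosolic genes (median 0.58, from -0.18 to 1.39), and within knockdown for 15 of 19 (median 0.61, from -0.34 to 1.15). The 12 called genes, which were chosen by the difference over both groups, had values of 0.36 to 1.39 in control and 0.48 to 1.15 in knockdown. The interaction of replicate 1 with the group was called for 0 of 37 genes (limma), against 0.418% of all probes tested. It had an unadjusted p under 0.05 for 3 of the 37, NARS2, IARS1 and MARS1, as it did for 2282 of the 27486 probes tested. The lowest adjusted p of a member was 0.538. With spike-in scaling the median interaction of all probes moved by 0.57, and limma called 1989 of 27486 probes, among them 5 members, IARS1, KARS1, LARS2, MARS2 and NARS2, with values from 1.0004 for IARS1 to 1.12 for NARS2. The brightest IARS1 probe had 0.58 in control and 1.01 in knockdown, and A_33_P3209351 had 0.49 and 1.11, whereas A_33_P3209346 went the other way with 1.03 and 0.81. With the IARS1 probes averaged the interaction was 0.27. MARS1 had 0.94 in control and 0.48 in knockdown, and its second probe 0.73 and 0.40. NARS2 measured -0.33 in control and 0.21 in knockdown. Each group holds 1 replicate 1 array, so the spread in this test comes from replicates 2 and 3. The mitochondrial genes had medians of -0.00051 within control and 0.04 within knockdown.

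**Figure D5:**
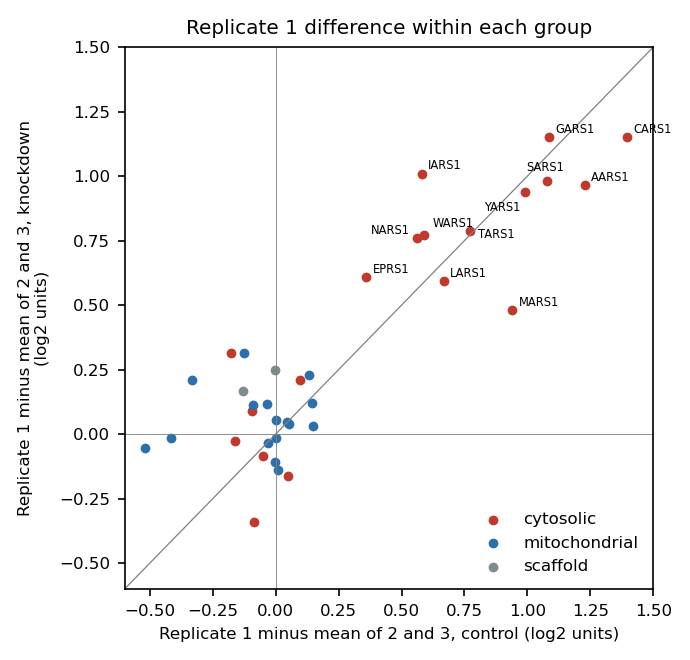
Replicate 1 minus the mean of replicates 2 and 3 within control (x axis) and within knockdown (y axis), in log2 units, with 1 point per gene and a line of equal values. The 12 called cytosolic genes, labelled, lie at 0.36 to 1.39 on the x axis and 0.48 to 1.15 on the y axis. The remaining genes lie at -0.52 to 0.15 on the x axis and -0.34 to 0.31 on the y axis.

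Of the 12 called genes, AARS1, CARS1, GARS1, SARS1 and YARS1 were called under each of the 16 alternative settings, and the others were called in 5 (EPRS1) to 13 (TARS1 and NARS1) of them. Leaving out knockdown replicate 1 reduced the cytosolic genes called from 12 to 6, the 5 above and MARS1, while calls over all probes fell from 1562 to 341, and this left control replicate 1 as the only array of its kind.

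Other genes of the pathway were read in the same comparison. Of 11 measured partners of tRNA charging, XPOT was called. XPOT, the factor that exports tRNA from the nucleus, measured 10.44, 9.93 and 9.98 in control and 11.21, 10.10 and 10.00 in knockdown, 0.82 higher in replicate 1 (SE 0.15, adjusted p = 0.0268, with the block 0.053). DTD1, which removes D-amino acids from tRNA, had 0.48, QRSL1, a subunit of the mitochondrial glutaminyl-tRNA amidotransferase, had -0.38, and TARS3, a threonyl-tRNA synthetase-like protein, had 0.16, none of them called. Among 5 cytosolic elongation factor genes EEF2, which moves the ribosome along, was 0.52 higher (adjusted p = 0.0471) and EIF5A, which relieves stalling, 0.43 lower (difference -0.43, adjusted p = 0.0488). Neither of these elongation factors was called with the block (adjusted p = 0.0761 and 0.0793). Of the 4 mitochondrial elongation factors TUFM, TSFM, GFM1 and GFM2 none was called, with differences from -0.16 to 0.04. Of 25 genes of the amino acid response 24 were retained and 21 were called, all higher, with a median of 1.39. The largest were GPT2, SLC6A9, TRIB3 and CHAC1, with 2.61 to 3.10. This list includes ATF4 itself, 0.76 higher (SE 0.12, adjusted p = 0.0172), and the asparagine synthetase ASNS, which makes the amino acid that NARS1 charges, 2.10 higher (SE 0.11). With the block 20 of the 24 were called and CEBPG was lost (adjusted p = 0.0617), where 3.34% of all probes were called. Between knockdown and control 0 of these 24 genes were called without the block, with a median of 0.20. With the block 4 were called, all higher in knockdown, where 3.78% of all probes were called. TRIB3, a pseudokinase induced by ATF4, was 1.05, 1.09 and 1.15 higher in knockdown in replicates 1, 2 and 3 (block adjusted p = 0.00284). GPT2, an alanine aminotransferase, was 0.71, 0.97 and 0.87 higher (0.00812), and DDIT4, an inhibitor of mTORC1 signalling, was 0.87, 0.55 and 0.85 higher (0.0147). The glycine transporter gene SLC6A9 was 0.57, 0.45 and 0.48 higher (0.0337). In each of these 4 genes all 3 same-numbered pairs were higher in knockdown. Some uncalled genes, such as DDIT3, were also higher in all 3 pairs, whereas SLC7A11, SESN2 and VLDLR were lower in all 3. SLC7A11 differed by -0.71, -0.35 and -0.30 in replicates 1, 2 and 3 (block adjusted p = 0.0895), and SESN2 by -0.21, -0.22 and -0.26. ATF4 and ASNS had mean knockdown differences of 0.05 and -0.01. The fit with the block called 0 of the 37 synthetase genes, and whether the lists differ was not tested. These lists were chosen with earlier results known, and ATF4 targets were among the genes already seen to differ.

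Markers of other cell types were read as well. Of 4 stromal genes COL1A1 alone was retained, and it was 0.63 higher in replicate 1 (adjusted p = 0.0167). The log2 summed level of the 4 was 8.24 to 8.28 in replicate 1 and 7.74 to 8.05 on the other arrays, while COL1A2, COL3A1 and DCN were not above the filter. No epithelial marker of 3 was retained. Of 4 T-cell genes 3 were retained, of 3 measured monocyte genes 3 and of 3 erythroid genes 2. None of them was called in this comparison, with summed log2 levels in replicate 1 of 7.83 to 7.92, 8.80 to 8.90 and 8.42 to 8.51. On the other arrays these sums were 8.002 to 8.61, 8.73 to 8.997 and 8.55 to 8.61. The B-cell precursor genes had no call on their brightest probe, with differences from -0.37 to 0.40, although 1 further probe each of IGLL1 (-0.57) and MME (-0.51) was lower in replicate 1. The part of these markers in the synthetase difference was not tested.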

How the data were processed

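RNA of 6 REH cultures was profiled on 1-color arrays. The authors deposited scanner files from Agilent Feature Extraction 10.7.1.1 with raw median intensity, local background and processed intensity per spot, and other values (flags). None of these was normalized between arrays. A deposited table of log2 values for 27869 probes, made by the authors with VSN and a filter against the negative controls, was used as an alternative, and single arrays correlated with the values used here at r = 0.99904 to 0.99969 across probes.

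The model of VSN, which calibrates each array and takes an inverse hyperbolic sine, was coded for this work and fitted to raw median intensities, with the 0.9 quantile of least squares kept. Outlier spots were dropped and spots of a probe averaged. A probe was retained when, on 2 of 3 arrays of a group, its normalized log2 value exceeded a threshold. The threshold was 1.1 times the 0.95 quantile of the log2 values of the negative controls (308 spots). This left 27490 probes (21598 catalogue, 5892 custom). Catalogue probes were named through RefSeq accessions, and 25728 of 34134 matched.

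Groups, replicate 1 and their interaction were fitted with limma 3.58.1 in R 4.3.3 (lmFit, eBayes, two-sided, no block), adjusted by Benjamini-Hochberg over all retained probes, after tests on simulated data. Same-numbered arrays of the 2 groups deviated together (r = 0.4263, 0.2874 and 0.2037 for replicates 1, 2 and 3, against -0.3314 to 0.1871 for other pairs). The replicate numbers come from the titles. Pairs that cross replicates 2 and 3 had r = 0.1871 and 0.1698, close to their same-numbered values. Thus only replicate 1 was clearly set apart, and the pairing of replicates 2 and 3 rests on the titles. Values on every array are given for the 10 cytosolic or scaffold and the 4 mitochondrial genes with the largest absolute replicate 1 difference and for the 4 genes with the lowest knockdown p. KARS1 was added after its values were seen, for its shared role with GARS1. From other lists at most 4 genes are named by the same measure. ATF4, ASNS, DDIT3, DDIT4, CEBPG, SLC7A11, SESN2, VLDLR, CD79B and VPREB1 were added after their values were seen, as were the other members of short lists. The members, the gene lists, the promoter motif and the replicate comparison were chosen with earlier results of these data known. Alternatives were other normalizations, filters and variance models, the replicate block, the slide row, averaged probes and leaving out each array.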

Additional observations from a re-analysis of the deposited data

How the results depend on the processing

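Each of the 12 called replicate 1 differences and the knockdown difference of WARS1 kept its direction under each of the 16 alternatives to normalization, filter, variance model, design and samples. When values were scaled on 6 spike-in probes, the median over all probes moved by 0.35 for knockdown, -0.14 for replicate 1 and 0.57 for their interaction. With it 1 gene was called for knockdown (WARS1) and 5 for the interaction (IARS1, KARS1, LARS2, MARS2 and NARS2), 5 cytosolic genes were called for replicate 1, and the median replicate 1 differences were 0.52 for cytosolic and -0.12 for mitochondrial genes. Calls over all probes were then 1069 for knockdown (478 before), 1989 for the interaction (115 before) and 434 for replicate 1 (1562 before). With no filter on dim probes 5 cytosolic genes were called, and 142 of the 57176 probes then tested. With the 75th percentile of the processed signal 8 were called, of 762 probes in all. No mitochondrial or scaffold gene was called for replicate 1 under any alternative.

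With the replicate number as a block, 11 cytosolic genes were called for replicate 1 (EPRS1 was lost) and 0 genes for knockdown, and the block changed no other call on the brightest probe of a synthetase gene. Among the genes of the other lists it added knockdown calls of 4 amino acid response genes and of the B-cell genes CD79B and IGLL1, and it removed the replicate 1 calls of XPOT, EEF2, EIF5A and CEBPG. Over all probes the block moved the calls from 478 to 1038 for knockdown and from 1562 to 918 for replicate 1. The slide row as a term equals leaving out control replicate 3 for the replicate 1 comparison, since that array is the only control in its row. The row term left 11 cytosolic genes called for replicate 1, of 775 probes in all. For knockdown the row term sets the knockdown arrays against control replicate 3 alone. The cytosolic knockdown median was then 0.20 (0.04 before).

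Without 1 array at a time, the cytosolic median of the replicate 1 difference ran from 0.58 to 0.66 and the mitochondrial median from -0.01 to 0.04. In the fits that kept both replicate 1 arrays, 8 to 11 cytosolic genes were called. Calls over all probes were then 407 to 775, against 1562 in the main fit. Calls of synthetase genes for knockdown stayed at 0 in each of the 6 fits without 1 array. The cytosolic knockdown median, with none called, was 0.18 when control replicate 1 was left out and -0.20 when knockdown replicate 1 was. Without control replicate 2, the replicate 1 calls of MARS1, WARS1 and EPRS1 were lost (adjusted p = 0.0721, 0.0561 and 0.0977). Without knockdown replicate 2, those of EPRS1, IARS1, MARS1 and WARS1 were lost. Where 1 replicate 1 array was left out, the remaining one was assumed to vary like the others. Each of the 40 synthetase probes was well above background on all arrays, and MARS2, at 6.06 to 6.75, had an SD of 0.35 in control against a median of 0.15 over all probes.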
